A study of Mus musculus with 6 samples.

Results

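Hedgehog pathway genes were compared between colon tumors of 2 mouse genotypes. Double knockout tumors came from animals with CDX2P-G19Cre;Apcflox/flox;Tgfbr2flox/flox alleles, and Apc knockout tumors from animals with CDX2P-G19Cre;Apcflox/flox alleles. The 9 members were the ligands Ihh and Shh, the receptor Ptch1, the signal transducer Smo, the transcription factors Gli1, Gli2 and Gli3, and the inhibitors Hhip and Sufu, of 19938 genes with a probe set that carries their symbol alone. Each member had 1 such probe set, and all 9 passed the filter on signal, so the choice among several sets of a gene never arose. There were 3 tumors per group, each from a separate C57BL/6J mouse of 3 weeks of age, with 1 array per mouse. Both groups carried the Cre transgene and the floxed Apc alleles, and the double knockout mice carried the floxed Tgfbr2 alleles as well. The Cre is driven by a CDX2 promoter and acts stochastically in the colon epithelium, so stromal cells, and epithelial cells in which it did not act, keep the genes. RNA came from cancer tissue cut out of the tumors by laser microdissection. How much surrounding mesenchyme was cut along with it is not known. The values are log2 signals after robust multichip analysis (RMA).

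Hedgehog ligands are secreted proteins that bind Ptch1 on a receiving cell. Unbound Ptch1 holds Smo inactive. Once the ligand is bound, Smo signals in the primary cilium and the Gli factors, which Sufu otherwise restrains, switch on target genes. Gli1, Ptch1 and Hhip are themselves targets, so their RNA is widely used as a readout of pathway activity, and Hhip, a surface protein that binds the ligands, and Ptch1 limit the signal. In the adult colon Ihh is made by differentiated colonocytes, and the cells that respond lie mainly in the underlying mesenchyme, among them smooth muscle precursors and fibroblasts. Shh is the main ligand of the embryonic foregut and of the stomach.

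The ligand gene Ihh and the targets Ptch1 and Hhip are the members on whose levels the comparison turns, and their promoters are shown for that reason. The sequences are those of RefSeq for GRCm38.p6, in windows of 300 bases around a start of transcription, and 7 of the 9 members had an entry. They are read 5′ to 3′ on the strand of the gene, with each GC box (GGGCGG, on either strand) in capitals. The Ihh window lies at chr1:74951623-74951922 on the minus strand, the Ptch1 window at chr13:63565686-63565985 on the minus strand and the Hhip window at chr8:80057959-80058258 on the minus strand. The Ihh window begins 250 bases before the outer end of the gene, while the starts used for Ptch1 and Hhip lie 7725 and 52 bases inside the annotated gene.
Ihh: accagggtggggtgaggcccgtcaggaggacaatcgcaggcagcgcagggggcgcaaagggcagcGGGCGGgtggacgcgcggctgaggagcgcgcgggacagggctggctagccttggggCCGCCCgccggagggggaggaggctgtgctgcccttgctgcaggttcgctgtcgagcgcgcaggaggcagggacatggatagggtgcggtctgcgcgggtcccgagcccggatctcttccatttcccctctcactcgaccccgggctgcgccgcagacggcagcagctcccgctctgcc
Ptch1: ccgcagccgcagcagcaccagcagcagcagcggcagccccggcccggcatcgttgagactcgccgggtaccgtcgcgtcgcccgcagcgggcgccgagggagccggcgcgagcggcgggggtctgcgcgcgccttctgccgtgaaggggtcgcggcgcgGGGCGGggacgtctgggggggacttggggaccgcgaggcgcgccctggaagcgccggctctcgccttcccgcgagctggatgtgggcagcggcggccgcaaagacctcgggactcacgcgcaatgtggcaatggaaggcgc
Hhip: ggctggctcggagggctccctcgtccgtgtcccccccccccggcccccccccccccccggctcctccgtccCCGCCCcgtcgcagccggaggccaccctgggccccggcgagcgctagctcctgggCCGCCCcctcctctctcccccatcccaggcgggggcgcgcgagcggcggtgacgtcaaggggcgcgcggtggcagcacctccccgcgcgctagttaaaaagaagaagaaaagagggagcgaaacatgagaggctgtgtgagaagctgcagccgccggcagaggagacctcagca
The Ihh window held 2 GC boxes, the Ptch1 window 1 and the Hhip window 2, and 35.7% of the 32851 promoter windows of the table held at least 1. The consensus bound by Gli factors (GACCACCCA), its shorter core (GACCACC), the CAGA box bound by Smad proteins (CAGACA) and a core of TCF and LEF sites (CTTTGA) were searched on both strands, the core being part of the consensus, and had 0 matches in these 3 windows. They were present in 0.253%, 2.8%, 21.0% and 16.0% of all windows. A window of this length says nothing of sites elsewhere in the gene.

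Of 19506 probe sets tested with limma, 0 passed a Benjamini-Hochberg adjusted p of 0.05, and 0 passed in the methods' t-test. At an unadjusted p of 0.05, limma called 1092 probe sets (5.6%) and the methods' t-test 998 (5.12%). A fit with array weights gave 2744 at the adjusted threshold, but the estimate of the weights stopped before convergence. Double knockout tumor 2 lay far from the others, at 79.3 on the first principal component (58.5% of the variance), where the other 5 tumors were between −24.7 and −1.22. Epithelial keratins and adhesion genes were high in every tumor. By rank on its array, the lowest of the values of Krt8, Krt18, Krt19, Epcam and Cdh1, that of Cdh1 in Apc knockout tumor 3, lay at the 97.48 percentile. Vim, one of the fibroblast markers used below, was also high, at 12.33 to 13.59 (percentiles 97.18 to 99.69), so such levels do not give the share of epithelium. Cdx2, the homeobox factor of intestinal epithelium, was at 11.18, 8.24 and 10.93 in double knockout tumors 1 to 3, against 10.89, 10.73 and 10.08 in Apc knockout tumors 1 to 3. Tgfbr2 was at 10.98, 10.35 and 10.47 in double knockout tumors, against 11.35, 11.37 and 11.09 in Apc knockout tumors. Where the probes of this set lie relative to the deleted exon was not examined, so its level does not check the genotype. By Xist and Y-linked genes, double knockout tumors 1 and 2 and Apc knockout tumor 3 were male, and the remaining tumors were female.

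Ihh was the only member whose groups did not overlap. Its log2 signal was 10.62, 10.37 and 10.51 in double knockout tumors 1 to 3, against 9.45, 9.44 and 8.72 in Apc knockout tumors 1 to 3. The lowest double knockout tumor lay 0.92 above the highest Apc knockout tumor, and the double knockout tumors were closer to each other (10.50 ± 0.12, SD, n = 3) than the Apc knockout tumors (9.20 ± 0.42, SD, n = 3). The mean difference was 1.30 on the log2 scale (standard error 0.22), or 2.46-fold with a 95% confidence interval of 1.70 to 3.58, and 0.395% of the probe sets tested had a difference at least as high. The adjusted p was 0.821 from limma, and the two-sided exact permutation test gave p = 0.1, the smallest that 3 tumors against 3 allow. Ihh is also among the genes that the study listed as changed in these same tumors, so its difference is a description, and its direction has no independent support here. The difference was between 1.06 (without Apc knockout tumor 3) and 1.43 (without Apc knockout tumor 1) when 1 tumor was left out, and it was 1.36 without double knockout tumor 2. In the limma fit with array weights it was 1.20, with an adjusted p of 0.0129.

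Shh, the other ligand among the members, varied more among the tumors of a group than any other member, and its groups overlapped. It was at 10.44, 8.02 and 11.13 in double knockout tumors 1 to 3, and at 10.31, 8.65 and 10.98 in Apc knockout tumors 1 to 3. Tumor 2 of either group was the low one, and in the remaining 4 tumors the groups were interleaved. The mean difference was −0.12 (standard error 0.95, adjusted p = 0.985 from limma), with a 95% confidence interval of −2.42 to 2.18 that also holds differences larger than that of Ihh. The sign of this mean depended on single tumors, since it was 0.80 without double knockout tumor 2, 0.043 without Apc knockout tumor 1 and 0.38 without Apc knockout tumor 3. In Apc knockout tumor 3 Ihh was at its lowest of the 6 tumors and Shh was the second highest. Dhh, the remaining ligand gene, known from Schwann cells and the testis, was at 6.80, 6.92 and 6.88 in double knockout tumors, against 6.83, 6.85 and 6.61 in Apc knockout tumors (difference 0.10, standard error 0.11).

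**Figure D1:**
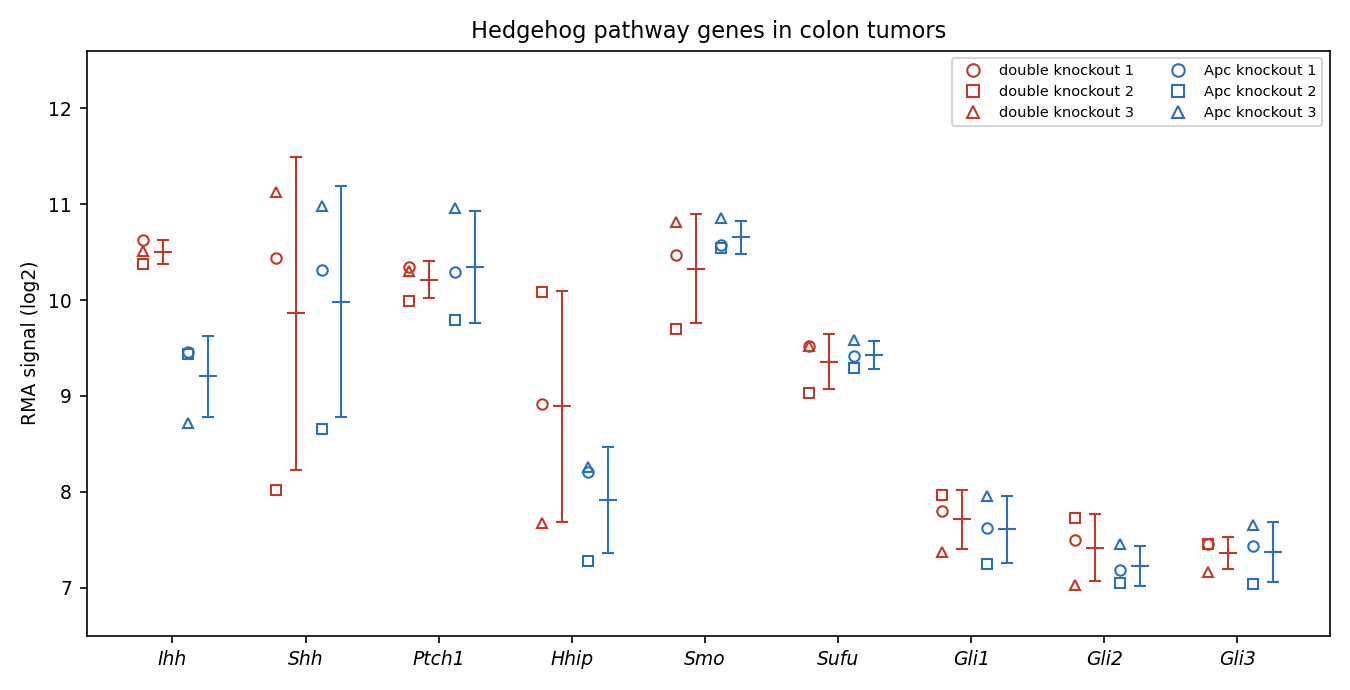
Vertical axis, log2 RMA signal, and horizontal axis, the 9 hedgehog genes, with 1 symbol per tumor, double knockout tumors in red on the left and Apc knockout tumors in blue on the right of each gene, and the mean with the SD of 3 tumors beside them. The groups are apart for Ihh (10.37 to 10.62 in double knockout tumors, 8.72 to 9.45 in Apc knockout tumors) and overlap for the other 8 genes.

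Of the 3 targets, Gli1 and Ptch1 had means within 0.13 of each other in the 2 groups, and Hhip was above every Apc knockout tumor in 2 of the 3 double knockout tumors. Gli1, the transcription factor that amplifies the signal, was at 7.80, 7.97 and 7.38 in double knockout tumors 1 to 3, against 7.62, 7.25 and 7.96 in Apc knockout tumors 1 to 3. Its groups overlapped, with a mean difference of 0.11 (standard error 0.23, 95% confidence interval −0.46 to 0.67, adjusted p = 0.927 from limma). The sign turned to −0.022 without double knockout tumor 2, to −0.074 without Apc knockout tumor 2 and to −0.066 with sex as a covariate. On the 6 arrays Gli1 ranked above 42.3% to 54.3% of the sets. Detection calls were not made, and the share of background in its signal is not known.
Ptch1, the receptor, was at 10.35, 9.99 and 10.31 in double knockout tumors 1 to 3, against 10.29, 9.79 and 10.96 in Apc knockout tumors 1 to 3. The highest of the 6 values belonged to Apc knockout tumor 3, the tumor with the lowest Ihh. The mean difference was −0.13 (standard error 0.30, 95% confidence interval −0.86 to 0.60, adjusted p = 0.931 from limma), and it was 0.17 without Apc knockout tumor 3.
Hhip, the decoy receptor, was at 8.92, 10.09 and 7.68 in double knockout tumors 1 to 3, against 8.21, 7.28 and 8.26 in Apc knockout tumors 1 to 3. Double knockout tumor 3 lay among the Apc knockout tumors, and the other 2 double knockout tumors lay above all of them. The mean difference was 0.98 (standard error 0.62), or 1.97-fold with a 95% confidence interval of 0.692 to 5.62 (adjusted p = 0.824 from limma, two-sided exact permutation test p = 0.3). Leaving out double knockout tumor 2 made it 0.38, and leaving out double knockout tumor 3 made it 1.59. It was 0.59 with sex as a covariate, and the 2 double knockout tumors high in Hhip were the male ones.

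Whether the targets differed by the same amount as Ihh was asked with the difference Ihh minus target within each tumor. The distance between the probe sets has no meaning of its own, but its change between groups is the fold change of Ihh over that of the target. Ihh minus Gli1 was 2.82, 2.41 and 3.14 in double knockout tumors, against 1.83, 2.19 and 0.76 in Apc knockout tumors. Ihh minus Ptch1 was 0.28, 0.38 and 0.21 in double knockout tumors, against −0.84, −0.35 and −2.24 in Apc knockout tumors. In both cases the groups did not overlap, with mean differences of 1.19 for Gli1 and 1.43 for Ptch1 (exact permutation test, two-sided, p = 0.1 in both cases, the smallest the design allows, and adjusted p = 0.15 over the 3 targets). As Ihh was listed as changed in these same tumors, this separation largely restates that of Ihh and is no independent evidence. Leaving out Apc knockout tumor 3 made the differences 0.78 for Gli1 and 0.88 for Ptch1. For Hhip the groups overlapped, with 1.70, 0.29 and 2.84 in double knockout tumors against 1.25, 2.16 and 0.46 in Apc knockout tumors, and a mean difference of 0.32 (exact permutation test, p = 0.8). The difference for Hhip was −0.29 when double knockout tumor 3 was left out and −0.095 when Apc knockout tumor 3 was. Since the Ihh levels fall into 2 separate clusters, 1 per group, no correlation over the 6 tumors is given for Ihh with its targets, and within a group the number of tumors is too small for one. Among the double knockout tumors, where Ihh spanned only 0.25 between the lowest and the highest, Hhip spanned 2.41, Gli1 0.59 and Ptch1 0.36.

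**Figure D2:**
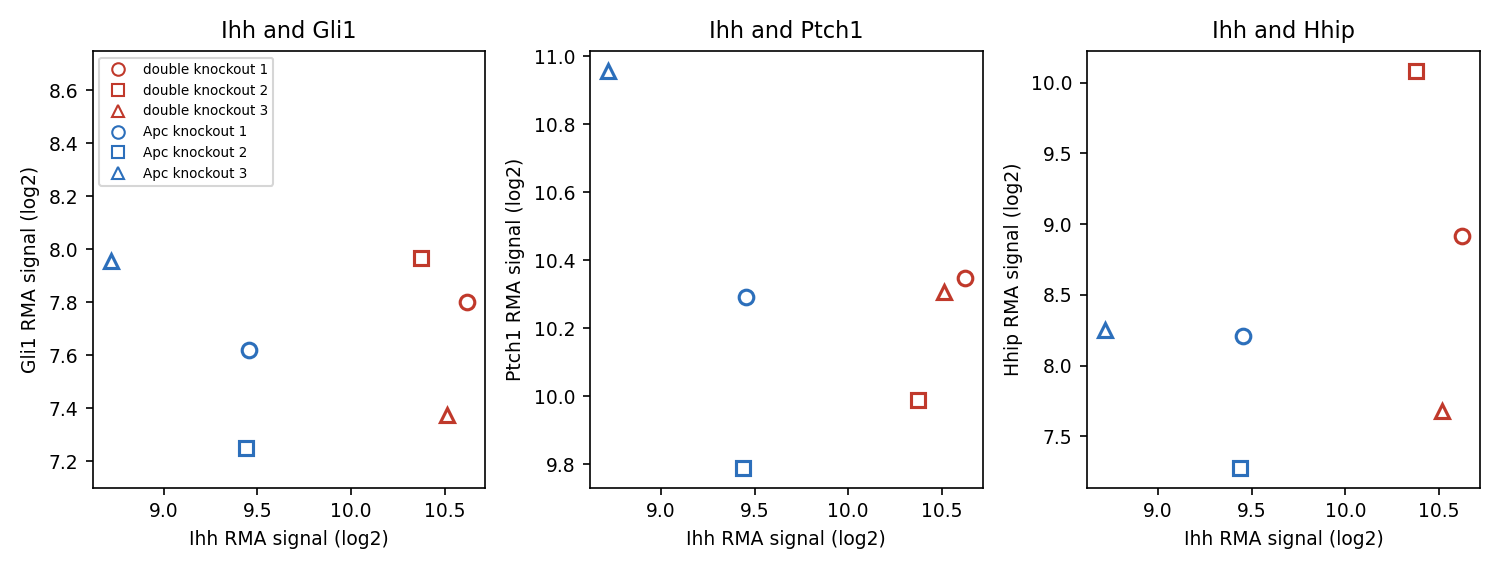
RMA signal on the log2 scale of Gli1, Ptch1 and Hhip (vertical axes, 1 panel each, not starting at 0) against that of Ihh (horizontal axes), with 1 symbol per tumor, double knockout in red and Apc knockout in blue. The red symbols lie together on the right at 10.37 to 10.62 for Ihh. They spread widely over the vertical axis for Gli1 and Hhip and less for Ptch1 (9.99 to 10.35). The tumor with the lowest Ihh (Apc knockout tumor 3, 8.72) has the highest Ptch1 (10.96).

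The groups overlapped for Smo, Sufu, Gli2 and Gli3, whose mean differences were between −0.33 and 0.19. Smo, the membrane protein that Ptch1 holds inactive, was at 10.47, 9.70 and 10.81 in double knockout tumors 1 to 3, against 10.57, 10.54 and 10.85 in Apc knockout tumors 1 to 3. Double knockout tumor 2 was the low one, and the mean difference of −0.33 (standard error 0.29, 95% confidence interval −1.03 to 0.38) was −0.016 without it and −0.57 without double knockout tumor 3. Sufu, which holds Gli proteins in the cytoplasm, lay between 9.03 and 9.52 in double knockout tumors and between 9.29 and 9.58 in Apc knockout tumors, with a difference of −0.070 (standard error 0.17) that turned to 0.095 and 0.0055 when double knockout tumor 2 or Apc knockout tumor 3 was left out.
Gli2, the main activator among the Gli factors, was at 7.50, 7.72 and 7.03 in double knockout tumors 1 to 3, against 7.18, 7.05 and 7.46 in Apc knockout tumors 1 to 3 (difference 0.19, standard error 0.21, 95% confidence interval −0.32 to 0.70). Leaving out double knockout tumor 2 made it 0.037, double knockout tumor 3 0.38, Apc knockout tumor 2 0.099 and Apc knockout tumor 3 0.30, and it was 0.036 with sex as a covariate. Gli3, which acts mostly as a repressor, lay between 7.17 and 7.46 in double knockout tumors and between 7.04 and 7.65 in Apc knockout tumors, with a difference of −0.014 (standard error 0.19). This was 0.020 after median centring of the arrays and 0.082, 0.013 and 0.12 without double knockout tumor 3, Apc knockout tumor 1 and Apc knockout tumor 3.
Over all 9 members, 4 had a higher and 5 a lower mean. Their median log2 fold change was −0.014, against 0.010 over all probe sets tested. Ihh alone had an unadjusted limma p under 0.05, where 1.78% of all probe sets were called higher at that threshold. The groups did not overlap for 1 member, higher, where 5.25% of all probe sets did so in that direction. Without double knockout tumor 3, 2 members (Ihh and Hhip) had such a p, where 3.64% of all probe sets were called higher. The members that did not overlap were then 3 higher and 1 lower, where 12.4% and 13.8% of all probe sets did so. The number of higher means moved with single tumors. It was 8 of 9 without Apc knockout tumor 3 (median 0.28, against 0.016 over all probe sets). Without Apc knockout tumor 2 it was 3 of 9 (median −0.14, against 0.0052). With any other tumor left out it was between 4 and 6. The share of higher means over all probe sets was not counted.

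Gli1 and the mean of smooth muscle markers put the 6 tumors in the same order. From high to low, the order by Gli1 was double knockout 2, Apc knockout 3, double knockout 1, Apc knockout 1, double knockout 3 and Apc knockout 2. The mean of 12 smooth muscle markers (Acta2, Myh11, Des and others) was 8.69, 10.13 and 8.19 in double knockout tumors 1 to 3, against 8.68, 8.17 and 8.76 in Apc knockout tumors 1 to 3, so only double knockout tumor 2 lay far from the next. Neighbors in that order were close in places, at 8.69 and 8.68 or 8.19 and 8.17 by the markers, and 7.97 and 7.96 by Gli1. Hhip differed from that order only in that double knockout tumor 1 stood above Apc knockout tumor 3. Ptch1 did not follow it. Double knockout tumor 2, the highest by Gli1 and by the markers, was above only Apc knockout tumor 2 by Ptch1 (9.99 against 9.79). The 3 highest tumors by Gli1, Gli2, Gli3, Hhip and the smooth muscle markers were the 3 male ones, of which 2 were double knockout and 1 was Apc knockout.
Gli1, Ptch1, Hhip and Gli3 had their lowest value in Apc knockout tumor 2, and Gli2 in double knockout tumor 3. Of the 12 smooth muscle markers, 11 had a higher mean in double knockout tumors, with a median of 0.49, but 5 did and the median was −0.11 without double knockout tumor 2. The median was 0.92 when double knockout tumor 3 was left out and 0.22 when Apc knockout tumor 2 was. The mean of 12 fibroblast markers (Pdgfra, Col1a1, Dcn and others) was 10.38, 10.41 and 9.59 in double knockout tumors 1 to 3, against 10.22, 9.82 and 10.28 in Apc knockout tumors 1 to 3, so double knockout tumor 3 and Apc knockout tumor 2 were again the lowest. The part of these markers in the levels of Gli1 and Hhip was not tested. With sex as a covariate, chosen after seeing the data, the mean differences were −0.066 for Gli1, −0.26 for Ptch1 and 0.59 for Hhip. They were 0.036 for Gli2, −0.13 for Gli3 and 1.42 for Ihh. In RNA from laser-dissected cancer tissue, fewer cells of a type and less RNA per cell cannot be told apart. The share of mesenchyme, where most responding cells lie, was not measured in the dissected tissue. The levels of Gli1, Ptch1 and Hhip therefore do not tell whether those cells received more ligand.

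Ihh did not share its order with the markers of the cells that are known to make it. The mean of 15 markers of colonocyte differentiation (Krt20, Slc26a3, Car4, Aqp8 and others) was 10.09, 11.34 and 9.04 in double knockout tumors 1 to 3, against 10.07, 9.37 and 9.86 in Apc knockout tumors 1 to 3. Double knockout tumors 2 and 3 were the highest and the lowest of the 6 by these markers, and both had more Ihh than any Apc knockout tumor (10.37 and 10.51).
Of the 15 markers, 11 had a higher mean in double knockout tumors (median 0.28), and without double knockout tumor 2 it was 4 (median −0.13). An unadjusted limma p under 0.05 was reached by 0 of them, where 5.6% of all probe sets were called. Without double knockout tumor 3 it was reached by 3, all higher (3.64% of all probe sets were called higher). Without double knockout tumor 1 or 2 it was reached by 1, lower (3.25% and 3.49% were called lower). Leaving out double knockout tumor 3 gave a median of 0.81, leaving out Apc knockout tumor 1 gave 0.53, and leaving out Apc knockout tumor 2 gave 0.065. Markers of gut epithelium as a whole (9 genes, Epcam, Cdh1, Vil1 and others) averaged 12.32, 12.29 and 12.18 in double knockout tumors, against 12.26, 12.19 and 11.84 in Apc knockout tumors, and Apc knockout tumor 3, with the lowest Ihh, was the lowest of these. Wnt targets and crypt stem cell genes (14 genes, Axin2, Lgr5, Notum and others) averaged 10.93, 8.93 and 10.94 in double knockout tumors, against 11.30, 11.19 and 11.09 in Apc knockout tumors, so every double knockout tumor was lower (13 of 14 genes had a lower mean, median −1.04, and −0.39 without double knockout tumor 2). Among these 14 genes, 3 had an unadjusted limma p under 0.05, all lower, where 3.82% of all probe sets were called lower. The groups did not overlap for 4, all lower, where 6.94% of all probe sets did so. The number called lower was 0 when Apc knockout tumor 1 (2.25%) or Apc knockout tumor 2 (4.37%) was left out. The part of the colonocyte, epithelial and Wnt markers in the Ihh difference was not tested. Of 7 immune markers, 4 had a higher mean in double knockout tumors (Ptprc, Cd3e, Csf1r and Adgre1, median of the list 0.078), while the myeloid genes S100a8 (−1.68), S100a9 (−1.84) and Itgam (−0.58) had a lower one, and the mean of the list differed by −0.43. Of 6 endothelial markers 3 had a higher mean (median −0.015). So did 3 of 5 tested markers of enteric neurons and glia, with a median of 0.15, while the mean of that list over 6 measured markers differed by −0.092.

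**Figure D3:**
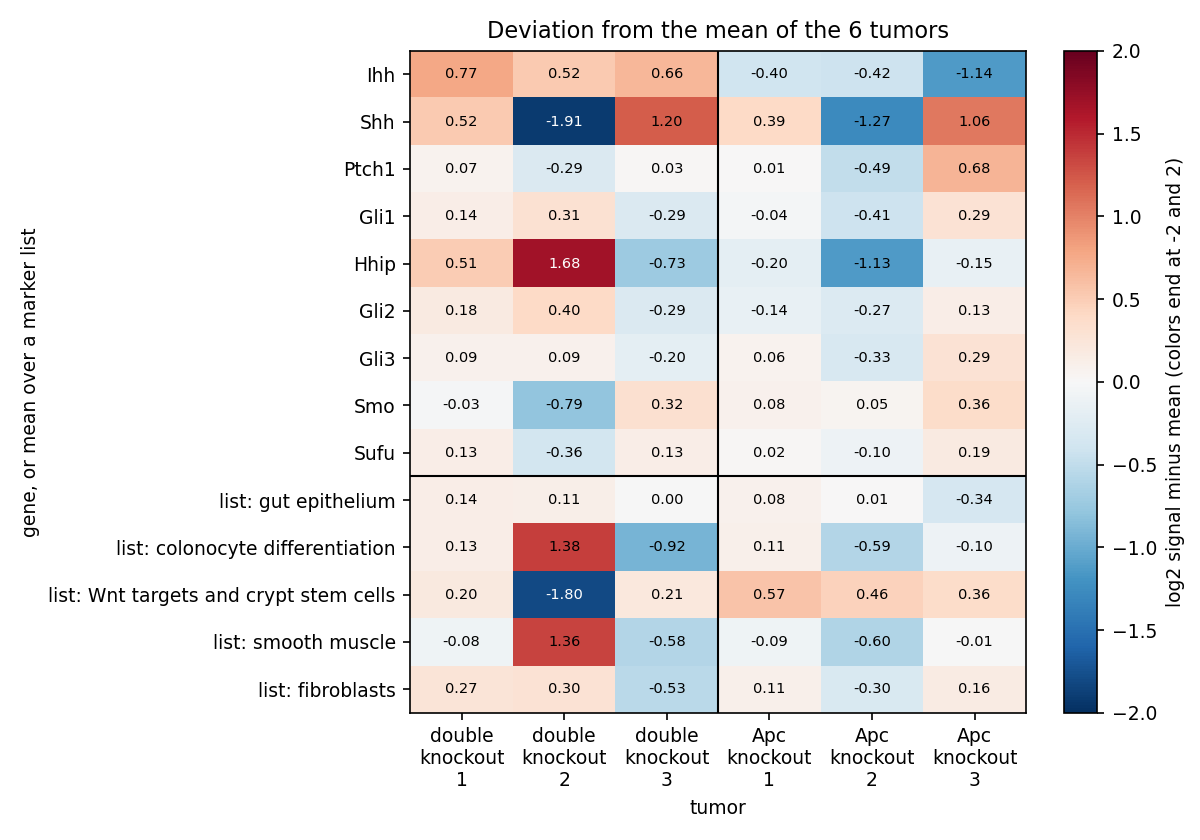
Log2 signal minus the mean of the 6 tumors (color scale and printed values) for the 9 hedgehog genes and the means of 5 marker lists (rows), in double knockout tumors (left) and Apc knockout tumors (right). Ihh is above its mean by 0.52 to 0.77 in all double knockout tumors, while Hhip (1.68) and the smooth muscle list (1.36) are highest in double knockout tumor 2.

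The rest of the pathway was described with 47 measured genes, of 50 listed, in 5 groups by role. Both the genes and their groups were listed with earlier results known. Of these, 0 passed the adjusted threshold in limma and 2 had an unadjusted p under 0.05, both lower (3.82% of all probe sets were called lower). The groups did not overlap for 4 genes, all lower in double knockout tumors, where 6.94% of all probe sets did so in that direction. Both counts moved with single tumors. The number lower at an unadjusted p was 0 when Apc knockout tumor 1 was left out (2.25% of all probe sets), 1 when double knockout tumor 2 (3.49%) or Apc knockout tumor 3 (2.47%) was, 5 when double knockout tumor 3 was (5.16%) and 6 when Apc knockout tumor 2 was (4.37%). The number of lower genes without overlap was 7 when double knockout tumor 2 (10.7% of all probe sets) or Apc knockout tumor 1 (11.5%) was left out, 11 when double knockout tumor 3 was (13.8%) and 16 when Apc knockout tumor 2 was (14.3%).
Among genes for making and releasing the ligand, Scube1, a secreted protein of the family that helps to carry hedgehog off the producing cell, was at 9.87, 8.79 and 9.33 in double knockout tumors 1 to 3, against 10.51, 9.63 and 10.56 in Apc knockout tumors 1 to 3. Double knockout tumor 1 lay above Apc knockout tumor 2, and the difference was −0.90 (standard error 0.36, unadjusted p = 0.045 and adjusted p = 0.821 from limma). Disp1, the membrane protein that releases lipid-modified hedgehog, was 1.23-fold lower by its brighter probe set, with 9.95, 9.53 and 10.02 in double knockout tumors against 10.22, 10.04 and 10.15 in Apc knockout tumors and no overlap. Its second set overlapped (difference −0.20, standard error 0.16). Hhat, the acyltransferase that adds palmitate to the ligand, differed by 0.052 (standard error 0.14), and Disp2 by 0.26 (standard error 0.23).
Of the co-receptors, Gas1, a GPI-anchored protein that helps hedgehog bind Ptch1, showed a larger difference in means than Scube1. It was at 9.55, 8.45 and 10.29 in double knockout tumors 1 to 3, against 10.67, 10.09 and 11.10 in Apc knockout tumors 1 to 3, and double knockout tumor 3 overlapped the Apc knockout range. This is a 2.28-fold lower mean (log2 fold change −1.19, standard error 0.50, unadjusted p = 0.053 and adjusted p = 0.821 from limma). The co-receptors Boc and Cdon, which are of an immunoglobulin-like structure, differed by −0.26 (standard error 0.24) and 0.064 (standard error 0.19).

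In the cilium and the steps that process Gli proteins, lower means were the more frequent. The median over all probe sets tested was 0.010. Of 13 cilium and relay genes, 10 had a lower mean, with a median of −0.20 (−0.095 when double knockout tumor 2 was left out, and −0.31 when double knockout tumor 3 was, or Apc knockout tumor 1). An unadjusted limma p under 0.05 was reached by 0 of them, where 5.6% of all probe sets were called. It was reached by 4, all lower, when double knockout tumor 3 was left out (5.16% of all probe sets were then called lower). When Apc knockout tumor 2 was left out, it was reached by 2, both lower (4.37%). Stk36, a kinase of the Fused family, differed by −0.37 (standard error 0.16), Kif3a, a motor subunit for transport in the cilium, by −0.36 (standard error 0.18) and Gpr161, a ciliary receptor that opposes the pathway, by −0.45 (standard error 0.26). Of 9 Gli processing genes, 8 had a lower mean, with a median of −0.060. The median was −0.10 when double knockout tumor 1 was left out, −0.11 when Apc knockout tumor 2 was and −0.049 when Apc knockout tumor 3 was. An unadjusted limma p under 0.05 was reached by 0 of these 9 genes, where 1.78% of all probe sets were called higher and 3.82% lower. The count was also 0 with any 1 tumor left out, where 1.22% to 3.64% were called higher and 2.25% to 5.16% lower. In a list of 9 genes, 0 is near these shares. Prkar1a, the regulatory subunit of protein kinase A, was lower by 0.14 on the log2 scale (standard error 0.10) with no overlap, Csnk1a1, a casein kinase that phosphorylates Gli proteins, differed by −0.11 (standard error 0.10) and Ulk3 by −0.13 (standard error 0.14).
Of 13 genes described as hedgehog targets in gut mesenchyme and other tissues, 6 had a higher and 7 a lower mean, with a median of −0.14. Bcl2, the inhibitor of apoptosis, was at 9.90, 9.74 and 9.64 in double knockout tumors 1 to 3, against 10.25, 10.03 and 10.09 in Apc knockout tumors 1 to 3, with no overlap (difference −0.37, standard error 0.12, unadjusted p = 0.021 and adjusted p = 0.821 from limma). Rab34, a GTPase of ciliated cells, had no overlap either (difference −0.26, standard error 0.13). Osr1, a transcription factor of mesenchyme, was at 7.01, 8.86 and 6.59 in double knockout tumors 1 to 3, against 6.89, 6.53 and 6.68 in Apc knockout tumors 1 to 3, with double knockout tumor 2 far above the other 5 (difference 0.78, standard error 0.57). The forkhead genes Foxf1 and Foxl1, direct hedgehog targets in the gut wall, differed by −0.37 (standard error 0.28) and −0.19 (standard error 0.17), and Bmp4, a signal of the mesenchyme to the epithelium, by 0.021 (standard error 0.39). The median over this list was −0.068 without double knockout tumor 2, −0.34 without Apc knockout tumor 2 and 0.12 without Apc knockout tumor 3.

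**Figure D4:**
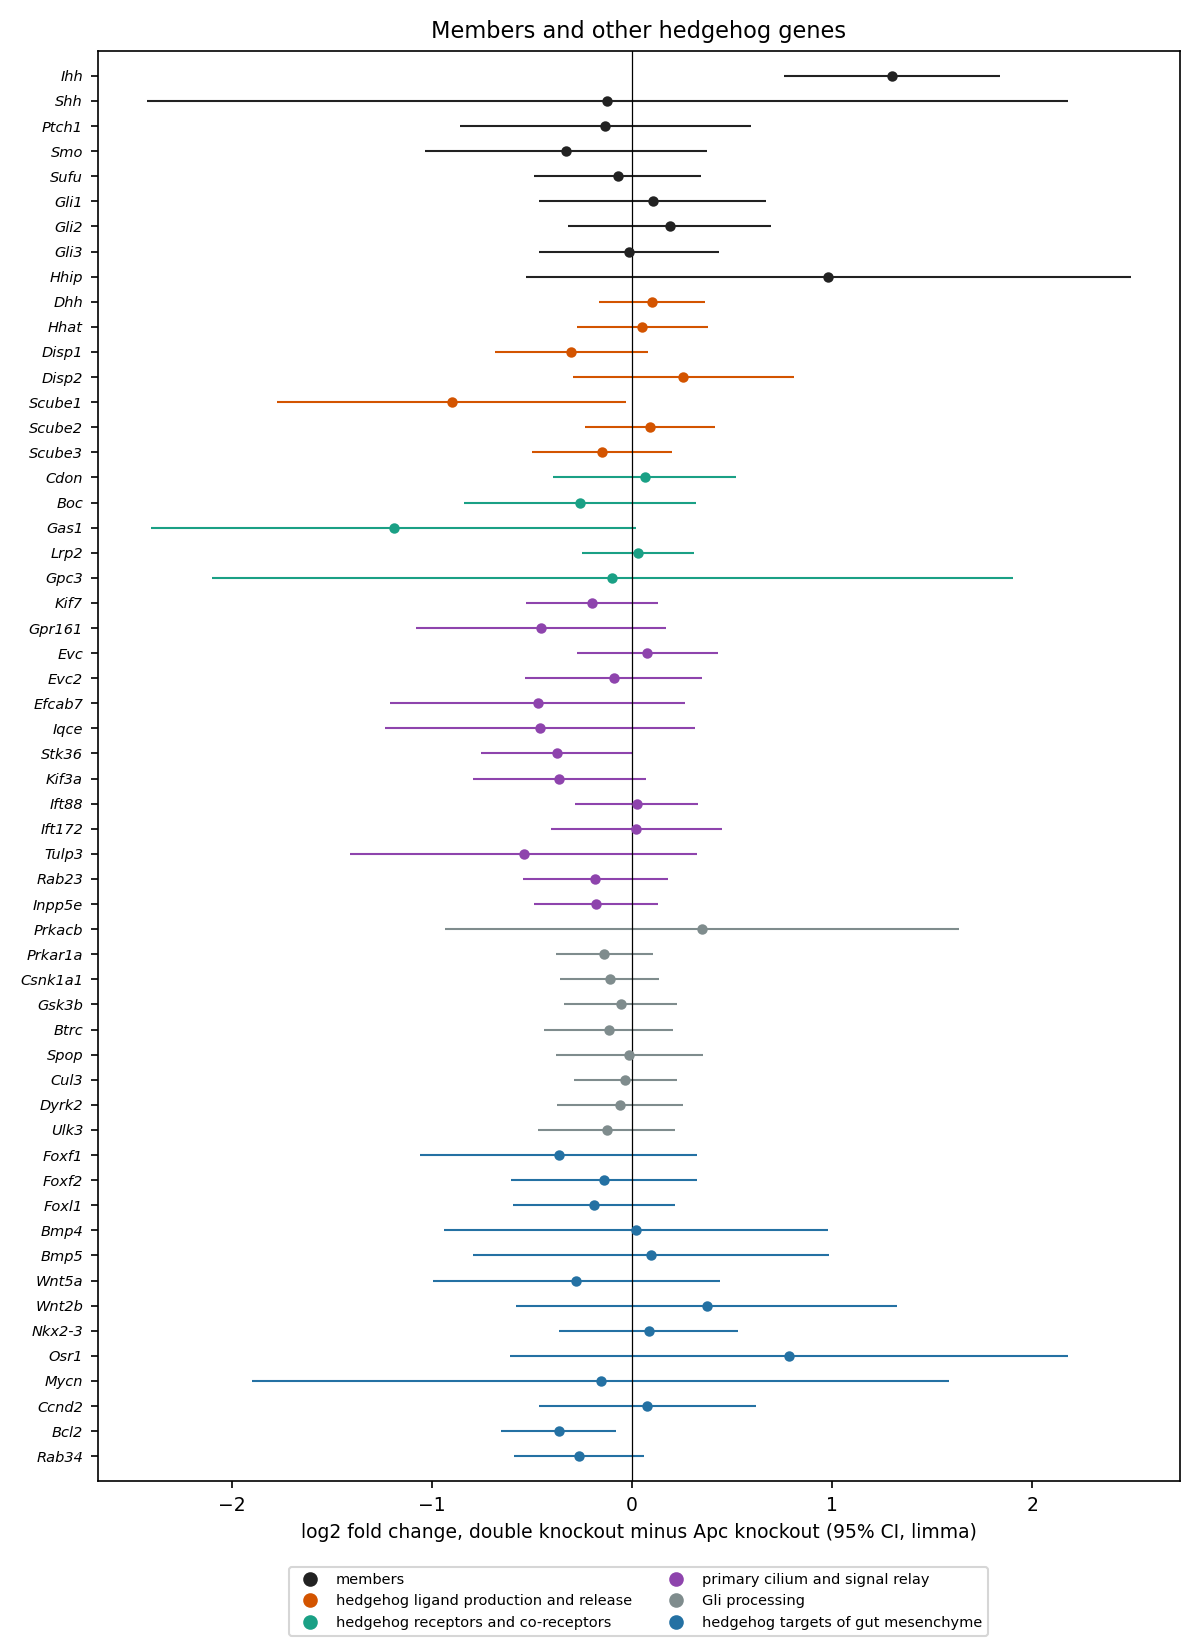
Log2 fold change, double knockout minus Apc knockout (horizontal axis), with the 95% confidence interval from limma for the 9 members (black, top) and 47 other hedgehog genes (colored by role, vertical axis), 1 probe set per gene. Ihh at 1.30 is the only member whose unadjusted interval lies apart from 0, and the intervals of Scube1 (−0.90) and Bcl2 (−0.37) lie below 0.

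The probe sets whose levels were most like those of Ihh over the 6 tumors were found by Pearson's correlation among the tested sets with 1 symbol, and are given as a description. They were Samd9l (r = 0.993), an interferon-inducible gene, Tent4a (0.981), a noncanonical poly(A) polymerase, Slc30a5 (0.980), a zinc transporter, Ndufaf6 (0.979), an assembly factor of respiratory complex I, and BC049762 (0.978). None of the 47 other hedgehog genes was among these 5. With only 5 drawn from all tested sets with 1 symbol, a list of 47 was unlikely to supply any, so no conclusion is drawn from this. Samd9l was at 9.82, 9.73 and 9.79 in double knockout tumors 1 to 3, against 9.13, 9.21 and 8.87 in Apc knockout tumors 1 to 3, a 1.64-fold higher mean. The other 4 had differences between 0.20 and 0.26 on the log2 scale, well below the 1.30 of Ihh. In all 5 the groups did not overlap, as a high correlation with Ihh nearly requires, since these correlations run over groups that are apart for Ihh.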

How the data were processed

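Affymetrix Mouse Gene 1.0 ST arrays of 6 tumors were analysed, 3 double knockout and 3 Apc knockout. The authors deposited log2 values, made with RMA in GeneSpring GX, which corrects the background, equalizes the distributions of the arrays and combines the probes of a set. The RMA version is not given in the sources used here. Of 35556 probe sets, 21789 carry 1 gene symbol in the platform annotation, 1621 several and 12146 none. The 19506 sets that had a symbol and averaged no less than the 20th percentile (5.88) over the whole table entered a test with limma 3.58.1 in R 4.3.3 (lmFit and eBayes), double knockout minus Apc knockout, without covariates, with Benjamini-Hochberg adjustment over all of them. The methods set a cut-off of 20% against poorly reproducible entities without naming its measure, and the filter on level stands in its place. A gene was read from its set with the highest mean. Named genes were the 9 members, the 3 measured genes with the smallest limma p of each other hedgehog list, and the 5 sets most correlated with Ihh. Hhat, Dhh, Foxf1, Foxl1 and Bmp4 were added after their values were seen. The members and lists were chosen with earlier results of these data known. The fit was tested on simulated data. The number of arrays limits the precision, and replicates are separate mice. The alternatives comprised leaving out each tumor, the replicate number as a block, array weights, robust eBayes with a trend, further quantile normalization or median centring, a 40th percentile filter or none, and the methods' t-test. Sex pattern as a covariate and list counts with a tumor left out were added after seeing the data. Gene names and chromosomes follow RefSeq for GRCm38.p6.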

Additional observations from a re-analysis of the deposited data

How the results depend on the processing

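Ihh kept its direction under all 15 alternatives, with differences of 1.06 to 1.43 and adjusted p between 0.0129 (array weights) and 0.945, and Hhip, Gli2 and Smo kept theirs. The array weights, whose estimate stopped before convergence and which ran from 0.208 (double knockout tumor 2) to 6.86 (double knockout tumor 1), gave 2744 probe sets past the adjusted threshold where limma without weights gave 0, and 3209 higher and 3369 lower at an unadjusted p under 0.05 (347 and 745 without weights). With them Ihh passed at 1.20 and the signs turned for Shh (0.20), Ptch1 (0.034), Gli3 (0.018) and Sufu (0.093). Median centring turned Gli3 to 0.020, and sex as a covariate turned Gli1 to −0.066. With 1 tumor left out, the count at an unadjusted p under 0.05 was 238 to 710 higher (710 without double knockout tumor 3) and 439 to 1006 lower (439 and 481 when Apc knockout tumor 1 or 3 was left out), and the differences ran from −0.79 to 0.80 for Shh, −0.41 to 0.17 for Ptch1, −0.074 to 0.28 for Gli1, −0.18 to 0.12 for Gli3, −0.15 to 0.095 for Sufu and −0.29 to 0.98 for Ihh minus Hhip. Ihh minus Gli1 (0.78 to 1.49) and Ihh minus Ptch1 (0.88 to 1.83) kept their sign, both lowest with Apc knockout tumor 3 left out. The cause of these changes was not tested. Tumors with the same replicate number share only a number (correlations of their deviations from group means −0.20, −0.065 and 0.092), and with the replicate number as a block 421 were higher and 929 lower at an unadjusted p under 0.05, 0 passed the adjusted threshold, and Ihh had an adjusted p of 0.578 in limma. Averaging the sets of a gene gave no other value, since each member had 1 set. The number of arrays limits the precision, and detection calls were not made.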
